A study of Mus musculus with 18 samples.

Results

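Unstimulated KO and WT dendritic cells were compared in bone marrow cultures from mice, using 8 of the 18 RNA-seq libraries of the study, 4 from each genotype. Every gene that passed a filter on low counts was taken, which left 11606 of the 16614 genes in the table. The cells of all 8 libraries had grown from bone marrow for 7 to 10 days with 100 ng/ml of Flt3L and 20 ng/ml of GM-CSF, and were then sorted as CD11c+ Xcr1+ cells or enriched with XCR1 antibody and beads. The other 10 libraries are WT and KO cells given LPS, a bacterial activator of dendritic cells, and enter only where a difference under LPS is set beside the unstimulated one. The labels call the genotypes WT and KO without naming the deleted gene, a Cre driver, the strain, or the age and sex of the animals, and the series title names STAT5 and STAT3. They do not say which isolation was used for which library, or whether replicates came from separate animals or cultures, so p-values measure the spread between libraries, which may be technical.

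XCR1-positive dendritic cells, known as type 1 conventional dendritic cells (cDC1), take up dead cells and present their antigens on MHC class I to CD8 T cells. STAT3 and STAT5 are latent transcription factors that cytokine receptors activate through JAK kinases, and GM-CSF is a classical STAT5 activator. Type I interferon acts through a complex that contains IRF9 and binds the interferon-stimulated response element (ISRE). Late cell cycle genes are controlled through the cell cycle genes homology region (CHR) and CCAAT boxes in their promoters.

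Promoters of 3 interferon-linked genes that were higher in KO cells show what an ISRE looks like in this gene group. The sequences are from RefSeq on GRCm38.p6, run 5′ to 3′ on the gene's strand from 250 bases before to 50 bases after the start of transcription, and carry in capitals, on either strand, matches to 2 copies of GAAA separated by any 2 bases. Oas3 (chr5:120777610-120777909, minus strand) makes 2-5A, the activator of RNase L. Isg15 (chr4:156200769-156201068, minus strand) encodes a ubiquitin-like modifier, and its 3 matches overlap. Tgtp2 (chr11:49064163-49064462, minus strand) encodes an immunity-related GTPase.
Oas3: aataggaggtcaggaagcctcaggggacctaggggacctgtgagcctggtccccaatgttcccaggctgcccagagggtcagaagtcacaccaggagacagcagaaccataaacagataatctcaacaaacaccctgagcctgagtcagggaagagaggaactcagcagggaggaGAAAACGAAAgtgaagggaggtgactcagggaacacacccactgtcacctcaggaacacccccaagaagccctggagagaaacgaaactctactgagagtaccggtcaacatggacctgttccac
Isg15: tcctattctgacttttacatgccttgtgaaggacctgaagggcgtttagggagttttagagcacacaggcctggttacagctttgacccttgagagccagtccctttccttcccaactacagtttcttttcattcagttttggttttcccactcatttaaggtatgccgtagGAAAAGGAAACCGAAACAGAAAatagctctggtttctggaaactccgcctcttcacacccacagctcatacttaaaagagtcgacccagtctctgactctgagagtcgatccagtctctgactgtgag
Tgtp2: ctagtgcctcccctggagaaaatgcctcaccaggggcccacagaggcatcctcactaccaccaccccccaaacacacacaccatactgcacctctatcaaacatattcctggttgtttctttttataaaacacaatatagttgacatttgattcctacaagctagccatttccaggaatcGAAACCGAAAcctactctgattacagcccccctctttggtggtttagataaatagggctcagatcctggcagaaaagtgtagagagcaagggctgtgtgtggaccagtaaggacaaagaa

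Promoters of 3 mitotic genes that were lower in KO cells are shown with matches to the CHR (TTTGAA) and the CCAAT box (CCAAT), on either strand, in capitals. Top2a (chr11:99024140-99024439, minus strand) untangles replicated chromosomes. Cenpf (chr1:189688037-189688336, minus strand) is a kinetochore protein. Espl1 (chr15:102296043-102296342, plus strand) is separase, which cuts cohesin at anaphase.
Top2a: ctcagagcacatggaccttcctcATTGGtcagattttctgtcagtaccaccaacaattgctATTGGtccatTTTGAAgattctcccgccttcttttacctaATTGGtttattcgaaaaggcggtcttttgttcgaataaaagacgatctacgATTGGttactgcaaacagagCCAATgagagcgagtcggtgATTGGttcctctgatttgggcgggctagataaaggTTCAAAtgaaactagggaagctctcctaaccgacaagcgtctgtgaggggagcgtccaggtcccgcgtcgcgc
Cenpf: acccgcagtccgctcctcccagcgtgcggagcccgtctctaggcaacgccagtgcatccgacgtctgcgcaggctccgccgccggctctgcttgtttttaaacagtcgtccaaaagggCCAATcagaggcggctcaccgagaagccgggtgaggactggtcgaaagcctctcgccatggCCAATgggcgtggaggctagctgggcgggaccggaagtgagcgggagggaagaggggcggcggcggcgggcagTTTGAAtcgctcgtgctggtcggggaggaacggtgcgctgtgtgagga
Espl1: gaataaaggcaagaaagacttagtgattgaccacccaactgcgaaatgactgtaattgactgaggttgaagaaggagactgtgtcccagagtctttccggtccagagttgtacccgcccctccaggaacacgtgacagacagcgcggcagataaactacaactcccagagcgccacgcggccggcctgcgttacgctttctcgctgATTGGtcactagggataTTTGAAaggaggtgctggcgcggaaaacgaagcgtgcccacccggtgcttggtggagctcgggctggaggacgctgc

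The 8 libraries held between 26257067 and 27375186 estimated counts over genes. The first principal component carried 36.1% of the variance and separated the genotypes, with WT replicate 4 nearest to the KO libraries. The second carried 17.9% and set KO replicate 4 (15.0) and WT replicate 1 (11.3) apart from the rest (-10.1 to -0.08). Within KO, chi-square per degree of freedom was 17.8 to 19.6 in pairs with replicate 4 and 2.75 to 6.73 in the other pairs, so no pair agreed within sampling noise. WT replicate 4 also had the highest summed neutrophil markers, at 51.1 CPM (counts scaled to library size) against 8.8 to 11.5 in the other WT libraries and 8.4 to 13.6 in KO. Results below are given without these libraries where that changes them.

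In edgeR's quasi-likelihood test, 895 of 11606 genes (7.71%) passed an adjusted p of 0.05, 490 higher in KO (4.22%) and 405 lower (3.49%). These genes are called higher or lower below, and the count of calls in each list is to be read beside these shares over all genes. Most differences were small. The median log2 fold change was 0.33 among genes called higher and -0.36 among genes called lower, against 0.00 over all tested genes, and 35 genes rose and 10 fell by at least 2-fold. All KO libraries lay outside the WT range for 455 of the 490 and 383 of the 405, and for 15.0% of all genes tested (KO above WT in 7.49%, KO below WT in 7.56%). The share called higher was 54.7% with TMM scaling, 42.1% when libraries were scaled to total counts, and 43.1% with a correction for GC content and transcript length. With all 18 libraries in the fit, 289 genes were called, 78.2% of them higher. Leaving only WT LPS replicate 2 out of that fit gave 751 calls, 64.0% of them higher. Calls given below as lost with all 18 libraries are to be read with this in mind. Without WT replicate 3 there were 477 calls and without KO replicate 3 there were 564.

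**Figure D1:**
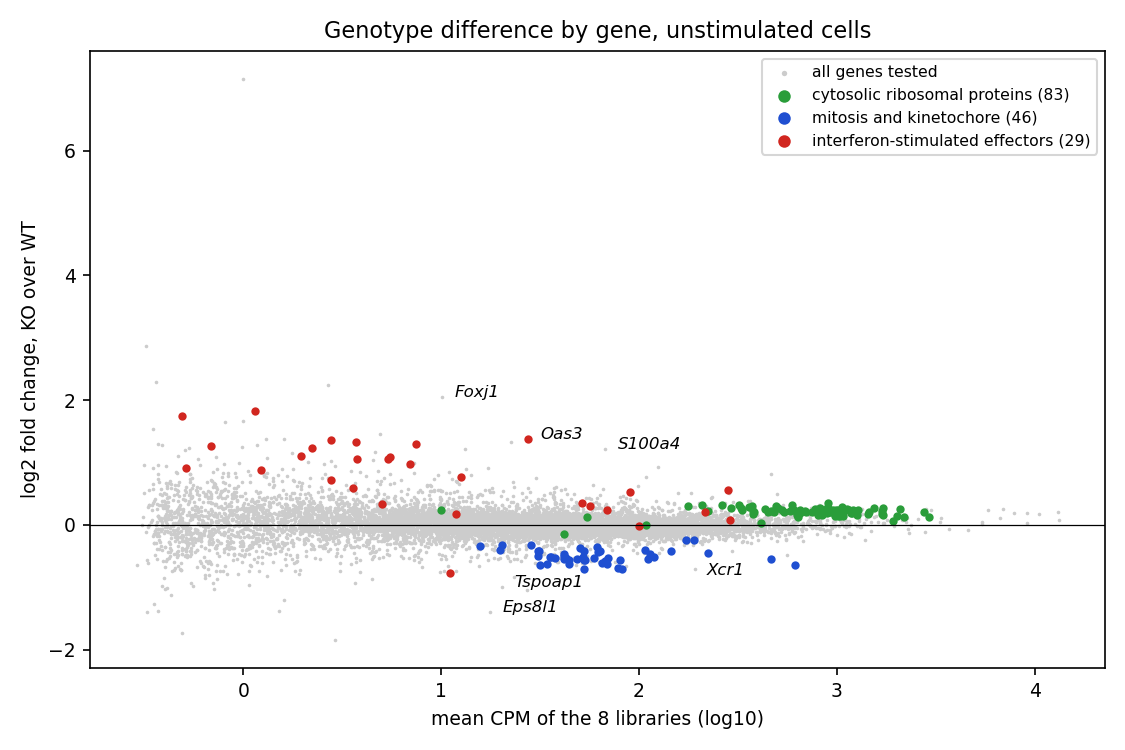
Log2 fold change of KO over WT (vertical axis) against the mean CPM of the 8 unstimulated libraries (horizontal axis, log10 scale) for the 11606 genes tested, 1 point per gene. All 46 mitosis genes lie below 0, 81 of 83 ribosomal protein genes lie above 0, and 27 of 29 interferon-stimulated genes lie above 0.

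The most uniform change was a fall of the genes that run mitosis. All 46 members of the mitosis and kinetochore list fell (lower calls over all genes, 3.49%), by a median of -0.52 on the log2 scale and between -0.70 and -0.25, and in each of them every KO library was below every WT library. Their summed level was 4649.7, 4717.5, 5048 and 4372 CPM in WT replicates 1 to 4, and 3128, 3407, 3264 and 3389.9 CPM in KO. The genotypes did not overlap, and WT replicate 4 was the lowest of the WT libraries.

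Cenpf stood at 94.1, 106, 113 and 95.3 CPM in WT and 58.8, 66.0, 63.7 and 62.1 CPM in KO, so the highest KO library was well below the lowest WT one. Its log2 fold change was -0.70 ± 0.06 (SE, n = 4 per genotype, edgeR adjusted p = 3.2e-05). Cenpe, a kinesin that moves chromosomes to the spindle equator, was 87.4, 96.1, 113 and 91.5 CPM in WT and 57.9, 60.2, 58.6 and 63.5 CPM in KO. That gene fell by 0.69 ± 0.07 (adjusted p = 8.7e-05), again without overlap. Mki67, the proliferation marker Ki-67, fell from 750 ± 76 to 481 ± 49 CPM (SD), a log2 change of -0.64 ± 0.08. Ccnb1, the mitotic cyclin B1, fell from 54.1 ± 3.4 to 35.0 ± 2.0 CPM and Espl1 from 79.2 ± 4.5 to 51.6 ± 1.8 CPM. Aspm, which focuses spindle poles, fell by 0.70 ± 0.08 and Top2a by 0.54 ± 0.05 on the log2 scale. Outside the list, the spindle gene Fam83d and the DNA helicase gene Pif1 fell by 0.76 ± 0.09 and 0.74 ± 0.09.

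Leaving out 1 library at a time kept 43 to 46 of the 46 calls. With all 18 libraries in the fit the median was -0.50, but only 6 members were called. Cenpf (adjusted p = 0.083), Top2a (0.083), Aspm (0.092) and Ccnb1 (0.12) were among those that missed. Outside the list, Fam83d (0.051) and Pif1 (0.080) missed too. Leaving WT LPS replicate 2 out of that fit gave 43 calls in the list. In bulk RNA, fewer cells of a type and less RNA per cell cannot be told apart.

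Genes of the preceding S phase moved much less. In the DNA replication and nucleotide supply list, 8 of 42 fell, none rose and the median was -0.11. Rrm2, the inducible subunit of ribonucleotide reductase, had 110, 108, 107 and 101 CPM in WT and 74.3, 83.8, 77.5 and 87.7 CPM in KO, with no overlap (log2 fold change -0.40 ± 0.06, adjusted p = 0.00065). Its partner Rrm1 fell by 0.28 ± 0.06, the thymidine kinase Tk1 by 0.38 ± 0.06 and the polymerase subunit Pola1 by 0.25 ± 0.05. These members supply or polymerise nucleotides. The 6 subunits of the MCM replicative helicase, Mcm2 to Mcm7, and the sliding clamp Pcna, named after their values were seen, were not called and lay between -0.10 and 0.07. Without WT replicate 3 there were 3 calls in the list and Pola1 was not one (adjusted p = 0.052), 4 calls were left without WT replicate 1, WT replicate 2 or KO replicate 1 and 5 without KO replicate 3, and with all 18 libraries there were none. The list's level in WT replicate 4 (mean log2 CPM 5.81) was close to KO (5.74 to 5.83) and below the other WT libraries (5.92 to 5.94).

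The brakes of the cell cycle did not move as a group. Of 16 p53 targets and CDK inhibitors, 1 rose and 2 fell. The CDK4 and CDK6 inhibitors Cdkn2c (-0.35 ± 0.07) and Cdkn2d (-0.30 ± 0.07) fell and the pro-apoptotic Bbc3 (0.36 ± 0.07) rose. Without WT replicate 4 a further member was called higher. The call of Cdkn2d was lost without WT replicate 2, KO replicate 1 or KO replicate 3 (adjusted p up to 0.056), and both inhibitors missed with all 18 libraries (0.33 and 0.17). Of the histone genes that peak in S phase, 10 of 61 passed the count filter and 1, H2ac18, rose (0.58 ± 0.10), a call lost with all 18 libraries (0.17). Without KO replicate 4, 1 histone gene fell.

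In promoters of the same window (9365 of the 11606 tested genes had one), TTTGAA was present in 14.7% of tested genes, 35.4% of those called lower and 30 of 38 mitosis genes (78.9%). CCAAT was present in 43.4%, 59.5% and 76.3% of the same sets. Both letters together stood in 6.18% of all, 23.5% of those called lower and 65.8% of the mitosis genes. DNA replication genes held TTTGAA at the share of all genes (14.7%), and genes called higher at 14.1%. It also stood in 7 of 23 interferon-stimulated effectors (30.4%) and 5 of 9 interferon-linked GTPases (55.6%), lists described below. These shares describe letters in the window, not bound sites, and the mitosis genes are also part of the genes called lower.

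**Figure D2:**
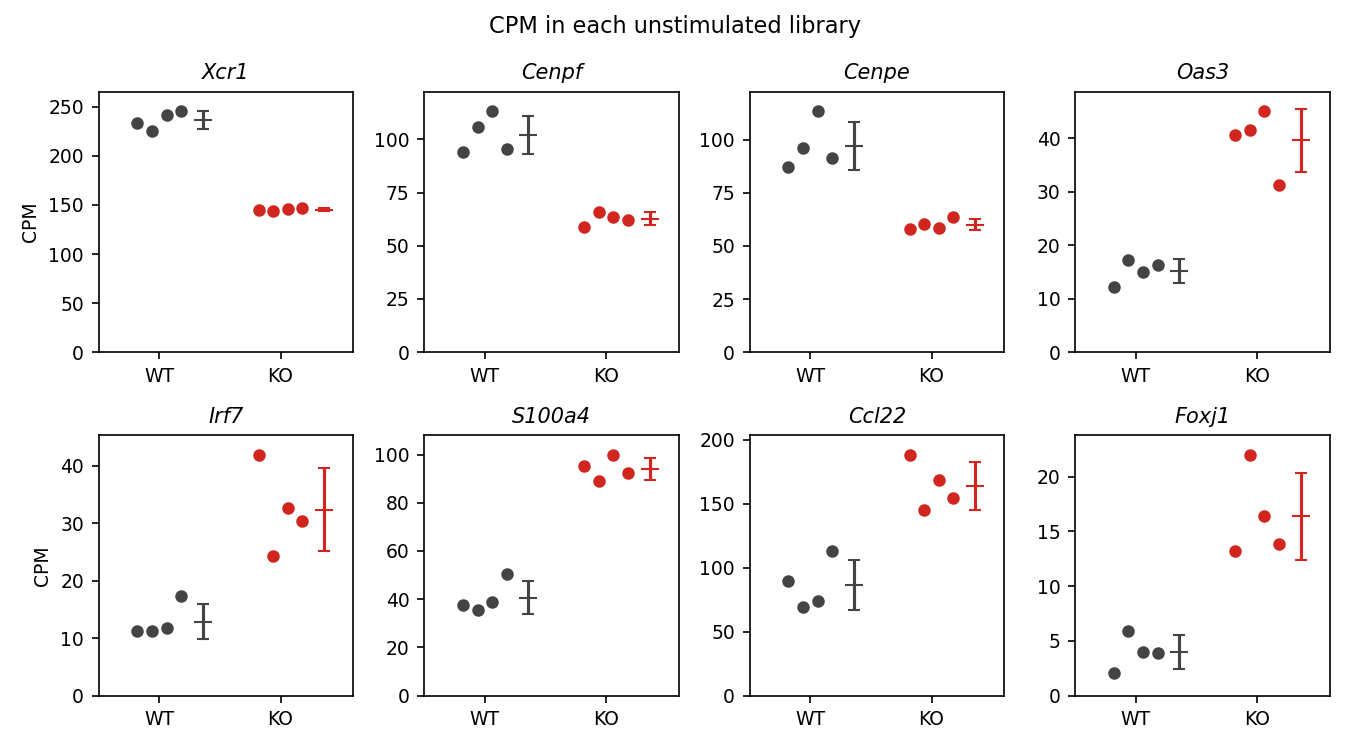
CPM (vertical axis, from 0) of 8 genes in each unstimulated library, with WT in grey and KO in red. Points are libraries and the bar beside them is the mean with its SD over 4 libraries. The genotypes do not overlap in any of the 8 genes shown, and most of them were named under a rule that required this.

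Interferon-stimulated genes changed in the other direction, with a larger median fold change per gene. Of the 29 tested members of the effector list, 18 rose (higher calls over all genes, 4.22%), 1 fell and the median log2 fold change was 0.87. The summed level of the list was 1075 to 1220 CPM in WT and 1346 to 1509 CPM in KO. Several of the members with large folds were scarce, so the median fold and the sum weigh the list differently. Oas3 was 12.1, 17.2, 15.1 and 16.4 CPM in WT and 40.6, 41.6, 45.1 and 31.3 CPM in KO, with no overlap and with KO replicate 4 the lowest of its group. Its log2 fold change was 1.38 ± 0.12 (adjusted p = 1.9e-05). Isg15 was scarce, at 1.77, 2.14, 1.43 and 3.14 CPM in WT and 6.40, 3.65, 5.90 and 5.40 CPM in KO. It rose by 1.33 ± 0.22 (adjusted p = 0.0018), with WT replicate 4 just below the lowest KO library.

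Other members that rose were Ifi44 (1.82 ± 0.19), the interferon-inducible Ifi27l2a (1.30 ± 0.17), the DNA-binding Ifi204 (1.09 ± 0.16), the pro-apoptotic Xaf1 (1.06 ± 0.13) and the exonuclease Isg20 (1.05 ± 0.12). Ifi44 stood near 0.502 CPM in WT and 1.78 in KO, so its fold rests on low levels. Slfn8, a Schlafen family member, went the opposite way. It was 12.7, 11.9, 16.2 and 14.9 CPM in WT and 9.63, 7.86, 8.36 and 6.68 CPM in KO, a fall of 0.78 ± 0.12 (adjusted p = 0.0010) that missed the threshold with all 18 libraries (0.24). Between 17 and 22 members were called higher when 1 library was left out, and 15 with all 18 libraries.

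Among the regulators, 3 of 14 interferon signalling and IRF genes rose and none fell, with a median of 0.08. Irf7, the IRF that amplifies interferon production, was 11.2, 11.2, 11.7 and 17.4 CPM in WT and 41.9, 24.3, 32.7 and 30.4 CPM in KO. Its log2 fold change was 1.33 ± 0.16 (adjusted p = 0.00021), and WT replicate 4 stood above its group. Irf9, a DNA-binding factor of the interferon response, rose from 76.6 ± 2.5 to 91.7 ± 4.2 CPM (0.26 ± 0.05). Ifnb1, the gene for interferon beta, had no count in any of the 8 libraries. The list's mean log2 CPM in WT replicate 4 was 7.17 against 7.10 to 7.11 in the other WT libraries.

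Sensors of nucleic acids rose in 2 of 14 cases. These were Dhx58, which encodes the RNA sensor regulator LGP2 (0.33 ± 0.06), and Tlr13, the receptor for bacterial ribosomal RNA (0.29 ± 0.06). Both calls were lost with all 18 libraries (adjusted p = 0.082 and 0.33). Of the guanylate-binding and immunity-related GTPases, which attack intracellular vacuoles, 5 of 12 rose, none fell and the median was 0.43. Tgtp2 was 7.22, 7.90, 7.32 and 8.89 CPM in WT and 14.5, 11.7, 14.8 and 15.2 CPM in KO (0.84 ± 0.10, adjusted p = 0.00015). Ifi47 (0.71 ± 0.12), Gbp9 (0.53 ± 0.10) and Irgm1 (0.29 ± 0.05) also rose, the last 2 not with all 18 libraries (0.24 and 0.12).

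WT replicate 4 had the highest interferon levels of the WT libraries. Its mean log2 CPM over the effector list was 3.01 against 2.61 to 2.74 in the other WT libraries and 3.26 to 3.72 in KO. It also had the high sum of neutrophil markers described above, whose part in these results was not tested. Of the 13 markers in that sum only 2 passed the count filter. The mean log2 CPM of these 2 was 2.46 in WT replicate 4 and 1.87 to 2.26 in the other WT libraries. Without WT replicate 4, 20 effectors rose with a median of 1.06, and 7 of 12 GTPases rose with a median of 0.59.

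The ISRE letters (GAAA, any 2 bases, GAAA) were found in the promoter window of 3.91% of tested genes, 11.4% of genes called higher, 12 of 23 effector genes (52.2%) and 8 of 9 GTPases (88.9%). Of the effectors called higher, 6 of 13 held it (46.2%), as did 5.79% of genes called lower and 4 of 38 mitosis genes (10.5%). The STAT dimer motif TTCNNNGAA stood in 8.19% of all tested genes, 7.71% of genes called higher and 6.10% of genes called lower. In the lists it stood in 6 of 23 effectors (26.1%), in 5 of 13 effectors called higher (38.5%), in 5 of 13 interferon signalling and IRF genes (38.5%) and in 5 of 9 GTPases (55.6%).

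**Figure D3:**
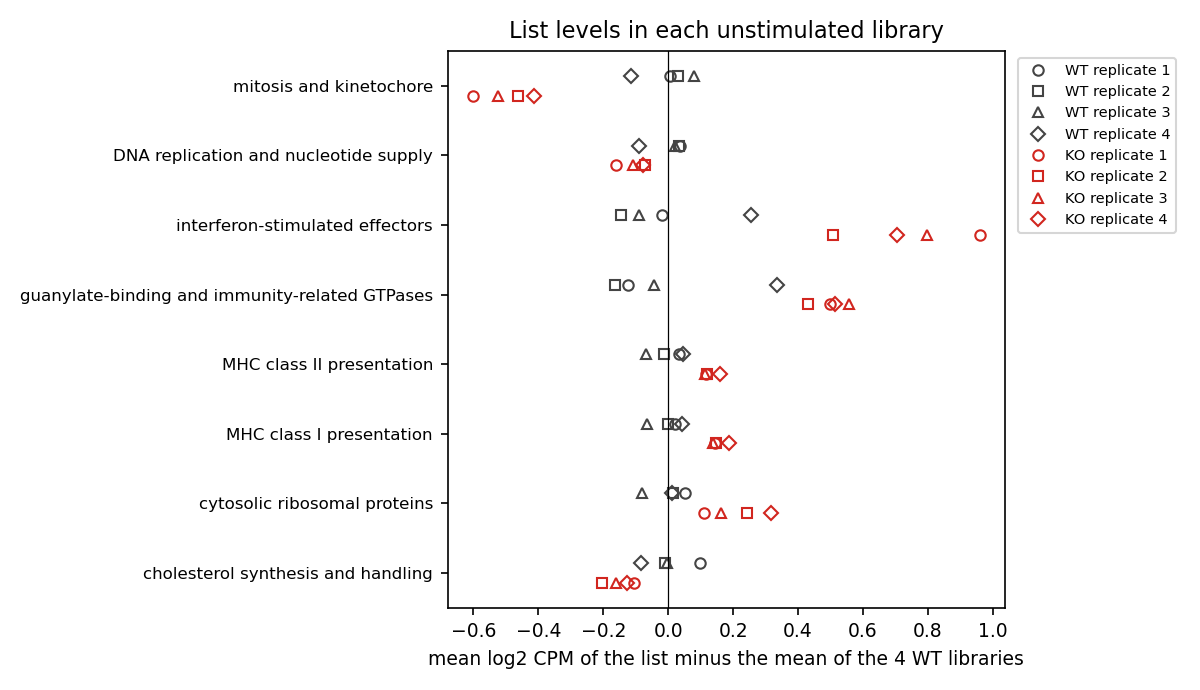
Mean log2 CPM of the tested members of 8 gene lists in each library, minus the mean of the 4 WT libraries (horizontal axis), with WT in grey, KO in red and 1 symbol shape per replicate number. KO libraries lie apart from WT for mitosis, both interferon-linked lists, both MHC lists, ribosomal proteins and cholesterol synthesis, while WT replicate 4 reaches the KO range for DNA replication.

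Antigen presentation genes were modestly higher in KO cells. Of 17 MHC class II pathway genes, 8 rose, none fell and the median was 0.13. H2-DMb2, a chain of the H2-DM peptide editor, was 137, 126, 130 and 141 CPM in WT and 167, 173, 169 and 162 CPM in KO (0.33 ± 0.05, adjusted p = 0.00084). H2-DMa rose by 0.25 ± 0.04, H2-Ob, a chain of the H2-DO inhibitor of that editor, by 0.26 ± 0.04 and H2-Eb1 by 0.24 ± 0.05. The abundant invariant chain Cd74 was 12809, 12792, 11259 and 11942 CPM in WT and 13834, 13841, 13682 and 14717 CPM in KO, a rise of 0.20 ± 0.05 (adjusted p = 0.027). H2-Ab1 (0.19 ± 0.05) and H2-Aa (0.19 ± 0.05) rose by as little.

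The calls of Cd74, H2-Ab1 and H2-Aa were weak. Each call was lost without WT replicate 3, WT replicate 4, KO replicate 2 or KO replicate 3, H2-Aa and H2-Ab1 also without WT replicate 2, and H2-Ab1 also without KO replicate 1 or KO replicate 4 (adjusted p up to 0.13), and all were lost with all 18 libraries (0.061 to 0.090). With the GC and length correction the list had 6 calls and a median of 0.05, and Cd74 (0.060) and H2-Ab1 (0.15) were not called. Without WT replicate 3, WT replicate 4, KO replicate 2 or KO replicate 3 it had 5 calls.

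Of 23 MHC class I pathway genes, 5 rose, none fell and the median was 0.14. H2-K1, a classical class I heavy chain, was 731, 747, 672 and 733 CPM in WT and 904, 884, 882 and 919 CPM in KO (0.32 ± 0.05, adjusted p = 0.00075). H2-D1 (0.27 ± 0.05), H2-Q6 (0.50 ± 0.08) and H2-T23 (0.18 ± 0.05) also rose. H2 genes are near-identical copies, so reads may have been split between them. H2-T23 lost its call without WT replicate 2, WT replicate 3 or KO replicate 3 (adjusted p up to 0.10) and with all 18 libraries (0.17). Without WT replicate 2, WT replicate 3 or KO replicate 3 the list had 3 calls, as it did with total-count scaling and with all 18 libraries, while DESeq2 made 8. With the GC and length correction there were 6 calls and the median was 0.07.

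Genes for cytosolic ribosomal proteins were higher as a group, by small amounts. Of 83 tested, 54 rose, none fell, and the median log2 fold change was 0.21. Their sum was 69692, 68941, 63749 and 67714 CPM in WT and 72692, 79555, 75246 and 83401 CPM in KO. Fau, which encodes ribosomal protein S30 fused to a ubiquitin-like protein, was 815, 829, 708 and 818 CPM in WT and 935, 1036, 978 and 1070 CPM in KO (0.34 ± 0.06, adjusted p = 0.0028). Rpl34 (0.31 ± 0.05), Rplp2 (0.31 ± 0.06) and Rps14 (0.29 ± 0.05) rose similarly.

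These genes are short, and fold changes followed transcript length across all genes. Median transcript length was 2369 bases for genes called higher, 3996 for genes called lower and 3416 for all tested genes. Across 11451 genes, which are not independent replicates, Spearman's rho between fold change and length was -0.35, and 0.13 for GC content. With both corrected for, 34 ribosomal genes were called and their median was 0.12. The 46 mitosis calls and their median (-0.51) changed little under the same correction. The ribosomal count was 17 without WT replicate 3, 23 without KO replicate 2, 29 without KO replicate 3, 34 without WT replicate 2 or WT replicate 4, and 31 with all 18 libraries.

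**Figure D4:**
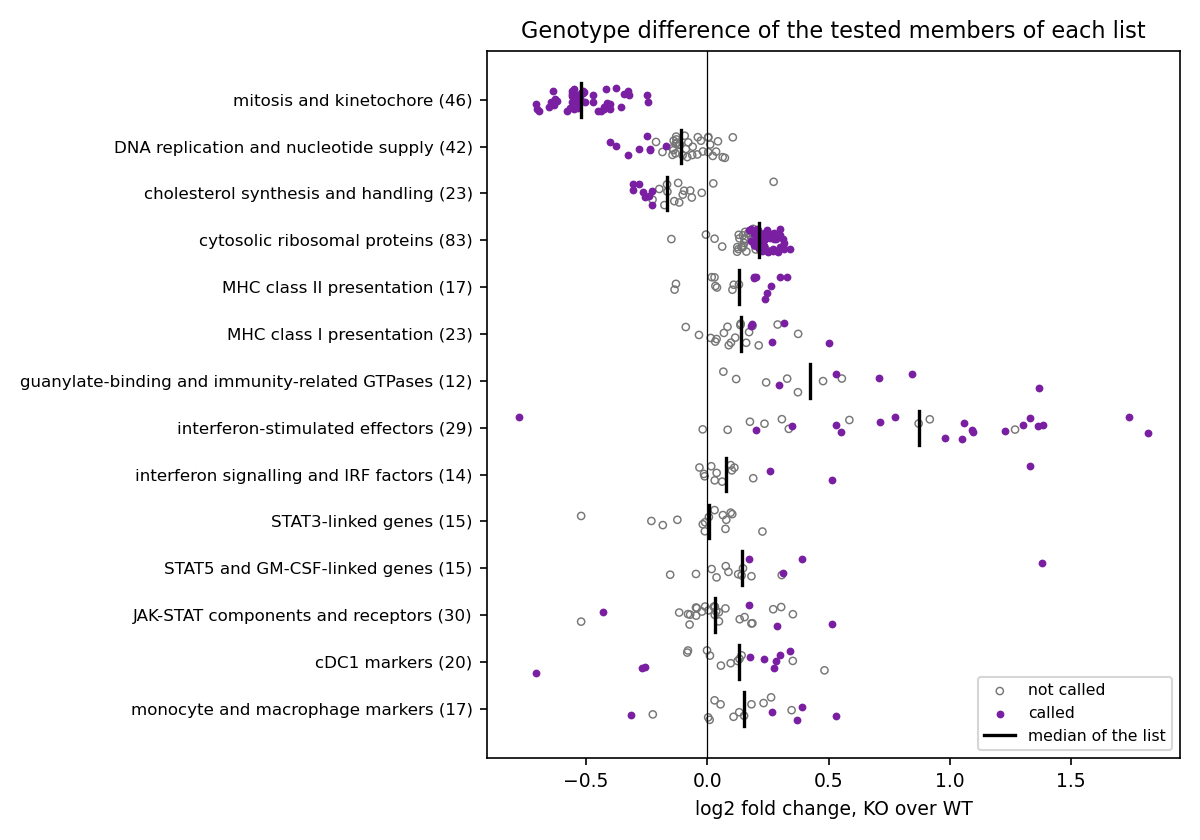
Log2 fold change of KO over WT (horizontal axis) of the tested members of 14 gene lists, with the number tested in parentheses. Filled points are called genes, open points are not called and the bar is the median of the list. Every mitosis gene is called and below 0, interferon-stimulated effectors reach from -0.78 to 1.82, and no STAT3-linked gene is called.

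RNA for the chemokine receptor used to isolate the cells differed between the genotypes, and the protein was not measured here. Xcr1 was 234, 226, 242 and 245 CPM in WT and 145, 144, 146 and 147 CPM in KO, a fall of 0.70 ± 0.04 with little spread on either side (adjusted p = 4.2e-06). In TPM, a unit that allows for gene length, the authors' values averaged 86.3 in WT and 49.1 in KO. Of 20 tested cDC1 markers, 6 rose and 3 fell. Cd24a (0.27 ± 0.04), Gcsam (0.34 ± 0.06), the cDC1 regulator Batf3 (0.30 ± 0.07) and Ifi205 (0.28 ± 0.05) rose, and Ly75, the endocytic receptor DEC-205, fell (-0.25 ± 0.07). Clec9a, the receptor for dead cells, named after its values were seen, was 361 CPM in WT and 364 in KO and was not called. Called members thus went in both directions, while over the whole list 14 members lay above 0 and 6 below, with a median of 0.13. The list's mean log2 CPM was 7.70 to 7.78 in WT and 7.81 to 7.82 in KO, a small rise without overlap. Its summed level, which abundant genes dominate, was 13768 to 14326 CPM in WT and 13335 to 14676 CPM in KO, with overlap.

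The calls of Ly75 and Batf3 depended on single libraries, and the list had 3 higher calls without KO replicate 3 and 1 lower call without WT replicate 3 or KO replicate 3. Ly75 lost its call without WT replicate 2, 3 or 4 or without KO replicate 1, 3 or 4 (adjusted p up to 0.15), and Batf3 without WT replicate 3 or KO replicate 3 (up to 0.061). With all 18 libraries Gcsam (0.093), Ifi205 (0.13), Batf3 (0.13) and Ly75 (0.35) were not called. Batf3 also missed under the GC and length correction (0.063).

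Markers of other cell types were called in small numbers. Of 10 tested cDC2 markers none was called (1 without WT replicate 4), and Sirpa, a cDC2 surface protein, was 58.0 ± 6.1 CPM in WT and 57.5 ± 3.0 in KO. Of 17 monocyte and macrophage markers, 4 rose and 1 fell, and 15 had a fold change above 0, with a median of 0.15. Cd68 (0.27 ± 0.06), Csf1r (0.37 ± 0.09) and the complement genes C1qa (0.53 ± 0.12) and C1qc (0.39 ± 0.11) rose, and Spp1, osteopontin, fell (-0.31 ± 0.08). The summed level of the list was 3759.6 to 4163 CPM in WT and 3869 to 4534 in KO, so the genotypes overlapped. The part of such cells in the other results was not tested.

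Csf1r, Spp1 and C1qc lost their calls without WT replicate 2, WT replicate 3, KO replicate 1 or KO replicate 3, Spp1 also without KO replicate 2, and C1qc also without WT replicate 1 or KO replicate 4 (adjusted p up to 0.14). C1qc also missed under the GC and length correction (0.072), and without KO replicate 4 there were 2 lower calls. With all 18 libraries C1qa (0.32), Cd68 (0.35), Csf1r (0.42), Spp1 (0.45) and C1qc (0.50) were not called.

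Of 7 tested plasmacytoid dendritic cell markers, 1 fell, the homing receptor Ccr9 (-0.37 ± 0.09). Kit, the stem cell factor receptor, was the called member of 2 tested mast cell and basophil markers (0.26 ± 0.06), while Mcpt8, Fcer1a and Ms4a2 had no count in any library. Kit and Csf1r were also the 2 called members of 7 tested progenitor markers, and Gata1 had no count. Pf4, a platelet chemokine, rose (0.63 ± 0.16) and was the called member of 3 tested erythroid and platelet markers. Neither of 2 tested neutrophil markers and not the 1 tested lymphocyte marker, Cd4, was called, and the natural killer cell gene Ncr1 had no count.

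Ccr9, Kit and Pf4 each lost their calls without WT replicate 3, KO replicate 1 or KO replicate 3, Ccr9 also without WT replicate 1, Kit without KO replicate 2, and Pf4 without WT replicate 2 or KO replicate 2 (adjusted p up to 0.095). Without WT replicate 4, 2 plasmacytoid markers were called higher, and without WT replicate 2, 1 progenitor marker was called lower. Ccr9 (0.29) and Pf4 (0.25) were also lost with all 18 libraries. Of 5 tested sex-linked genes 1 fell, Eif2s3y, at 0.827 CPM in WT and 0.457 in KO, a call lost without WT replicate 1, 3 or 4 or without KO replicate 1, 2 or 4 (up to 0.11) and with all 18 libraries (0.14).

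The STAT genes named in the series title were not called. Stat3 was 207, 259, 232 and 240 CPM in WT and 210, 255, 233 and 210 CPM in KO, with overlapping genotypes (-0.05 ± 0.08, adjusted p = 0.78). Stat5a was 95.7 ± 16 CPM in WT and 98.9 ± 12 in KO, and Stat5b 113 ± 11 and 107 ± 12, neither called (0.84 and 0.62). Counts over a whole gene do not show whether a part of it was deleted, so these levels do not check the label KO. Among the 40 tested neighbours of these genes, 5 were called (7.71% over all genes): Top2a, Tns4, Cnp, Dhx58 and Atp6v0a1. Top2a and Dhx58 are also in the mitosis and sensor lists above. Tns4 (0.54 ± 0.14), Cnp (0.15 ± 0.04) and Atp6v0a1 (-0.19 ± 0.05) each lost the call without WT replicate 1, WT replicate 2, KO replicate 2 or KO replicate 3, and the last 2 also without WT replicate 3 or 4 (adjusted p up to 0.15). Leaving out KO replicate 1 ended the calls of Tns4 and Cnp and leaving out KO replicate 4 that of Atp6v0a1, and none of the 3 was called with all 18 libraries (0.12 to 0.50).

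None of 15 STAT3-linked genes was called (median 0.01), nor was any in the fits that left out 1 library, while 1 was called higher with the GC and length correction, with or without the replicate block. Il6st, the shared receptor of the IL-6 family, was 554 ± 36 CPM in WT and 583 ± 73 in KO, and Bcl6 was 187 ± 7.6 and 195 ± 9.7. In the list of genes linked to STAT5 or GM-CSF, 4 of 15 were called, each higher in KO, and the median was 0.14. Ccnd1, cyclin D1, was 470, 465, 479 and 485 CPM in WT and 593, 611, 607 and 546 CPM in KO (0.31 ± 0.05, adjusted p = 0.00096). Ccnd2 (0.39 ± 0.10), the GM-CSF receptor chain Csf2ra (0.17 ± 0.05) and the chemokine gene Ccl17 (1.38 ± 0.32) were the others.

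Ccnd2, Csf2ra and Ccl17 depended on single libraries. Each lost its call without WT replicate 3, KO replicate 1 or KO replicate 3, Ccnd2 and Ccl17 also without WT replicate 2, and Csf2ra also without WT replicate 1, WT replicate 4 or KO replicate 2 (adjusted p up to 0.16). The list had 2 calls without WT replicate 2 and 1 without WT replicate 3, KO replicate 1 or KO replicate 3. With all 18 libraries no member was called, Ccnd1 included (0.11), and Csf2ra also missed under the GC and length correction (0.052).

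The JAK-STAT components and cytokine receptors included 3 higher and 1 lower call among 30 (median 0.03). Jak3, the kinase of the common gamma chain receptors, was 42.3, 45.1, 44.8 and 52.2 CPM in WT and 35.7, 36.6, 35.7 and 28.9 CPM in KO (-0.43 ± 0.08, adjusted p = 0.0045). The lowest value was that of KO replicate 4, and the gene was called without it too. Il10ra, the IL-10 receptor chain, rose (0.29 ± 0.06), a call lost without WT replicate 3 or KO replicate 3 (up to 0.053) and with all 18 libraries (0.23). Without either of these libraries 1 member of the list was called higher.

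Cytokine and maturation genes were mostly not called. Of 15 tested chemokine and chemokine receptor genes, 3 rose and 1, Xcr1, fell, and 8 lay above 0 and 7 below (median 0.12). Ccl22, a ligand of CCR4, was 89.7, 69.0, 74.0 and 113 CPM in WT and 188, 145, 169 and 154 CPM in KO (0.92 ± 0.13, adjusted p = 0.00051), with WT replicate 4 the highest of its group. Ccl17, the other CCR4 ligand, was at 0.958, 0.480, 0.789 and 0.672 CPM in WT and 2.66, 0.865, 2.35 and 1.69 CPM in KO, and the genotypes overlapped. Its call was lost without WT replicate 2, WT replicate 3, KO replicate 1 or KO replicate 3 (adjusted p up to 0.056) and with all 18 libraries (0.17). Ccl9 rose by 0.87 ± 0.15 and missed with all 18 libraries (0.19).

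Of 12 tested inflammatory cytokine genes, only Il18 was called (0.56 ± 0.10), with 2 calls without WT replicate 2 and 3 without WT replicate 4. Of 18 co-stimulation and maturation genes, only the maturation-linked Marcksl1 was called (0.29 ± 0.06), and there were 6 calls without WT replicate 4 and 2 without KO replicate 2. Of 18 tolerogenic and inhibitory genes, 4 rose and none fell (median 0.09). Timd4, a phosphatidylserine receptor, was 9.65, 7.05, 9.58 and 10.9 CPM in WT and 17.7, 16.9, 17.2 and 17.4 CPM in KO (0.90 ± 0.10, adjusted p = 0.00013). Lgals9, galectin 9, was 12.1, 10.8, 10.7 and 14.5 CPM in WT and 27, 18.4, 22.5 and 22.1 CPM in KO (0.90 ± 0.12). The inhibitory receptor genes Cd300a (0.42 ± 0.11) and Vsir (0.24 ± 0.06) rose by less, calls that were lost without WT replicate 1, WT replicate 3 or KO replicate 3, Cd300a also without WT replicate 2 or KO replicate 1 and Vsir also without KO replicate 2 (adjusted p up to 0.086), and with all 18 libraries (0.080 and 0.45). The tolerogenic list had 2 calls without WT replicate 1, WT replicate 3 or KO replicate 3.

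Among C-type lectin and endocytic receptors, Fcgr2b, the inhibitory Fc receptor, rose (0.63 ± 0.07) and Ly75 fell, with 2 of 19 called in all. Without WT replicate 4, 3 members were called higher. The call of Fcgr2b was lost with all 18 libraries (0.20), and that of Ly75 depended on single libraries as given above.

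Cholesterol synthesis genes were lower. Of 23, 8 fell, none rose and the median was -0.17. Lss, lanosterol synthase, was 59.4, 56.7, 57.1 and 49.4 CPM in WT and 48.6, 44.4, 46.1 and 41.1 CPM in KO, without overlap (-0.30 ± 0.07, adjusted p = 0.011). Hmgcs1, of the mevalonate pathway (-0.31 ± 0.08), and the sterol carrier Stard4 (-0.23 ± 0.06) also fell, as did Scd2, a fatty acid desaturase outside the list (-0.49 ± 0.06). The list had 1 call without WT replicate 3, 2 without KO replicate 2 or KO replicate 3, 4 without WT replicate 1, and 5 without WT replicate 2 or KO replicate 1. Stard4 lost its call without WT replicate 3, KO replicate 1 or KO replicate 3, and Hmgcs1 without WT replicate 1, WT replicate 3, KO replicate 2 or KO replicate 3 (adjusted p up to 0.11). With all 18 libraries Stard4 (0.40), Lss (0.49) and Scd2 (0.45) were not called, and 1 member of the list was.

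In other stress and metabolic lists few genes passed. Of 19 glycolysis and hypoxia genes, 2 rose, Pgk1 (0.17 ± 0.04) and Eno1 (0.17 ± 0.05), both lost without any of WT replicates 1, 3 and 4 and KO replicates 1, 2 and 3 (adjusted p up to 0.13), with all 18 libraries (0.17 and 0.19) and with the GC and length correction (0.12 and 0.060). Of 16 integrated stress and unfolded protein response genes, 2 fell. Phgdh, of serine synthesis, was 40.9, 35.2, 37.4 and 33.7 CPM in WT and 27.1, 27.2, 27.8 and 32.5 CPM in KO (-0.36 ± 0.07), and Chac1 fell by 0.93 ± 0.23 at levels near 1 CPM. Without KO replicate 4 there were 4 lower calls. Phgdh missed with all 18 libraries (0.17), and Chac1 missed there (0.14) and without WT replicate 1, 3 or 4 or without KO replicate 1 or 4 (up to 0.076). Of 19 immediate early and handling stress genes, Klf2 (0.43 ± 0.07), Hspa1a (0.80 ± 0.17) and Nr4a1 (0.37 ± 0.08) rose, Hspa1a not with all 18 libraries (0.48). No heat shock chaperone of 13 was called, and Hspa8 was 2367 ± 187 CPM in WT and 2372 ± 177 in KO.

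Large changes were also seen in genes of other kinds. Among called genes of at least 5 CPM in a genotype and without overlap between genotypes, Foxj1, the regulator of motile cilia, rose most. It was 2.10, 5.91, 3.94 and 3.88 CPM in WT and 13.2, 22, 16.4 and 13.8 CPM in KO (2.05 ± 0.22, adjusted p = 0.00012), and it was the 1 called gene of the 5 tested motile cilia genes. S100a4, a calcium-binding protein, was 37.5, 35.7, 38.7 and 50.7 CPM in WT and 95.1, 89.1, 99.9 and 92.6 CPM in KO (1.21 ± 0.09, adjusted p = 7.0e-06). Cnr2, the CB2 cannabinoid receptor (1.22 ± 0.13), Hr, a nuclear corepressor (1.45 ± 0.20), and Fut7, the fucosyltransferase that makes selectin ligands (1.16 ± 0.15), also rose. The absence of overlap was a condition for choosing these genes, not a result.

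Eps8l1, an actin regulator related to EPS8, fell most in that class. It was 27.2, 30.5, 27.8 and 17.4 CPM in WT and 9.29, 10.3, 9.89 and 9.40 CPM in KO (-1.40 ± 0.14, adjusted p = 6.1e-05), with WT replicate 4 between the other WT libraries and KO. Tspoap1 was 22.4, 30.2, 27.5 and 27.8 CPM in WT and 12.2, 15.0, 14.1 and 12.8 CPM in KO (-0.997 ± 0.09). Fndc5, the irisin precursor (-0.74 ± 0.09), the matrix protein gene Matn2 (-0.68 ± 0.09) and Msi2, an RNA-binding protein of blood progenitors (-0.67 ± 0.07), followed. Among abundant genes, the lysosomal Psap (0.18 ± 0.04) and Cst3 (0.26 ± 0.06) rose, and Tubb5 (-0.24 ± 0.06) and Actn1 (-0.25 ± 0.07), cytoskeletal genes, fell.

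Of these, Psap, Cst3, Tubb5 and Actn1 each lost their calls without WT replicate 3, Psap and Actn1 also without KO replicate 2 or 3, Actn1 and Tubb5 without WT replicate 1, Tubb5 and Cst3 without WT replicate 2 or KO replicate 1, and Tubb5 without KO replicate 3 (adjusted p up to 0.11). Tubb5 (0.37) and Actn1 (0.16) were also lost with all 18 libraries.

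Of the 5 genes that rose by at least 4-fold, 4 were too scarce for the level set above, and are named after their values were seen. Capn11, a calpain protease, had 1 count in all WT libraries together and 212 in the KO libraries, a ratio of 213 with a 95% exact interval of 37.8 to 8437 that covers counting error only. Slc15a2, a peptide transporter, was 0.811, 0.997, 0.864 and 1.05 CPM in WT and 4.12, 4.89, 3.70 and 4.96 CPM in KO (2.24 ± 0.16, adjusted p = 6.1e-06). Homer2 rose by 2.86 ± 0.36 (8 counts in all WT libraries, 61 in KO) and Cadm3 by 2.28 ± 0.47 (13 and 65). Both were under 1 CPM in every library of either genotype. Zfp69, a zinc finger gene, had the lowest fold change of all called genes, also named after the fact, with 5.08, 4.73, 5.30 and 3.14 CPM in WT and 0.899, 1.28, 1.72 and 1.18 CPM in KO (-1.84 ± 0.20). All were called whichever library was left out.

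The genotype difference was then set beside that under LPS (5 WT and 5 KO libraries), in a fit on 18 libraries. The difference between the 2 genotype effects, the interaction, uses the unstimulated libraries too and was called for 458 of 11989 genes (3.82%). Of the genes called higher without stimulation, 95 of 490 (19.4%) had a called interaction, 94 of them toward or past 0. Of the genes called lower, 29 of 404 (7.18%) did, 22 of them toward or past 0. The choice of these genes by their unstimulated difference favours that direction.

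Several interferon-linked genes had a smaller genotype difference under LPS on the log2 scale, at much higher levels. Oas3 averaged 15.2 CPM in WT and 39.6 in KO without stimulation, and 662 and 790 under LPS. Irf7 averaged 12.9 and 32.3 CPM, and 2623 and 2925 under LPS. The difference in CPM was thus not smaller under LPS for either gene. Oas3 had a log2 fold change of 0.26 ± 0.10 under LPS (interaction -1.15, adjusted p = 0.00046), Irf7 of 0.16 ± 0.12 (interaction -1.19, 0.0018) and Isg20 of 0.18 ± 0.07 (interaction -0.89, 0.0018). Of the 29 effectors, 9 had a called interaction, all below 0, and the list's median was 0.20 under LPS. Under LPS 2 effectors were called higher in KO, among them Ifi44 (0.51 ± 0.09, edgeR adjusted p = 0.00070). Of 83 ribosomal protein genes 27 had one, all below 0, and their median under LPS was -0.05. Of the 46 mitosis genes, 1 had one, Cenpe, and the median under LPS was -0.46 with 7 members called lower. Xcr1 was lower under LPS as well (-0.61 ± 0.06), and its interaction was not called (0.07, adjusted p = 0.70). Ccl22 was higher in KO under LPS (0.86 ± 0.18, interaction adjusted p = 0.90), as was Slc15a2 (2.25 ± 0.16, adjusted p = 0.99).

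Some genes changed sign. Gcsam was 0.34 ± 0.06 without stimulation and -0.70 ± 0.10 under LPS (interaction adjusted p = 0.00042), Batf3 was 0.30 ± 0.07 and -0.38 ± 0.10 (0.012), Cd300a was 0.42 ± 0.11 and -0.53 ± 0.12 (0.0034), and Kit was 0.26 ± 0.06 and -0.20 ± 0.05 (0.0018). In the fit on 18 libraries the unstimulated differences of Gcsam (adjusted p = 0.093), Batf3 (0.13) and Cd300a (0.080) were not called. The unstimulated calls of Batf3, Cd300a and Kit were also lost without single libraries, as given above. Stat3, not called without stimulation, was lower under LPS (-0.36 ± 0.07, adjusted p = 0.0035), but its interaction was not called (adjusted p = 0.10). The number of called interactions ranged from 208 without WT control replicate 3 to 1501 without WT LPS replicate 2.

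**Figure D5:**
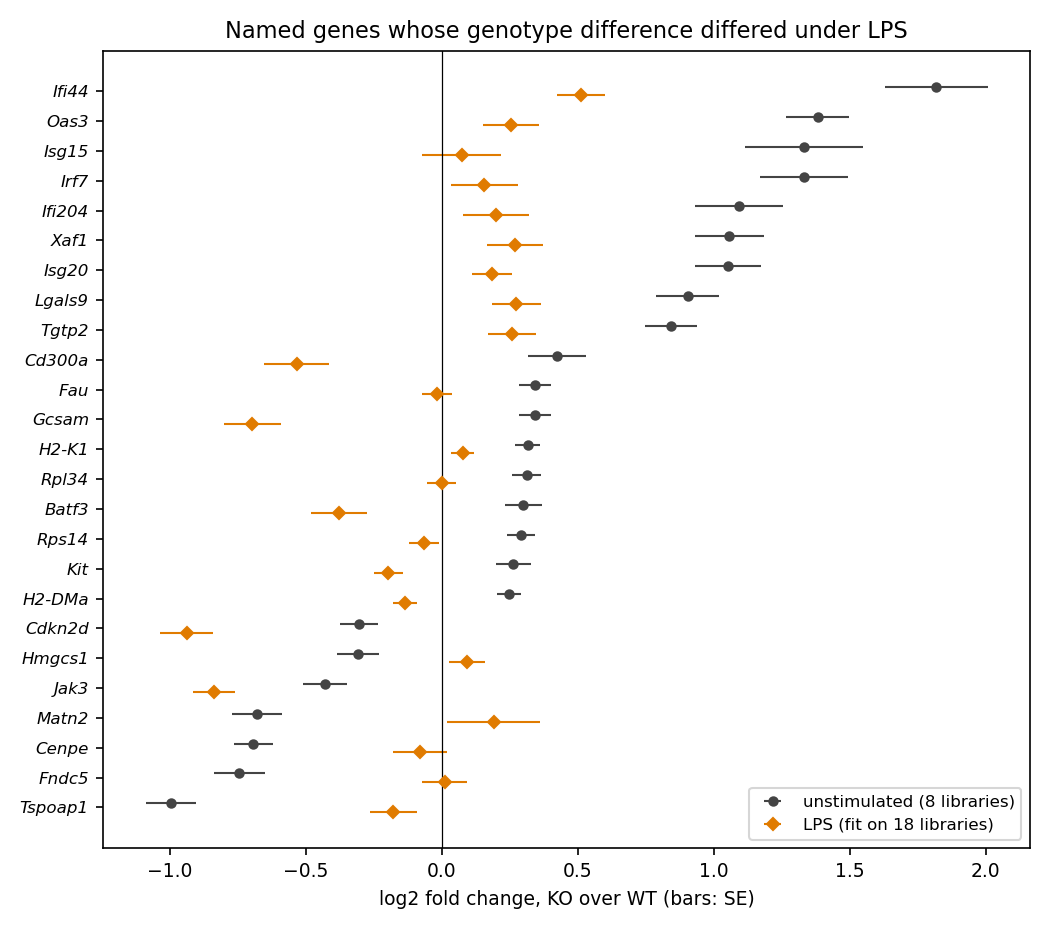
Log2 fold change of KO over WT (horizontal axis, bars are SE) without stimulation (grey circles) and under LPS (orange diamonds) for the 25 named genes with a called interaction. Oas3 and Irf7 lie above 1 without stimulation and at 0.26 and 0.16 under LPS, while Ifi44 stays at 0.51 under LPS. Gcsam, Batf3, Cd300a and Kit lie on opposite sides of 0.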

How the data were processed

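RNA was measured in 18 libraries of mouse bone marrow-derived dendritic cells by 150-base paired reads. The authors' deposited table gives, per the file headers, estimated counts, FPKM and TPM per gene and library. HISAT, Bowtie2 and GRCm39 are named in the submitters' processing notes, without versions, and the counting tool is not given in the sources used here. Of the deposited estimated counts, 6.37% were not whole (tolerance 0.001) and were rounded. The authors' FPKM were not used, and the authors' TPM were used once, for the level of Xcr1.

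Genes were filtered with edgeR's default rule (minimum count 10, minimum total 15) and scaled with TMM. KO and WT were compared in the 8 unstimulated libraries with edgeR 4.0.16 (quasi-likelihood, R 4.3.3), with Benjamini-Hochberg adjustment over all 11606 genes and no covariates. The LPS comparison and the interaction were fitted on 18 libraries. CPM in the text are on the TMM scale. Alternatives were DESeq2 1.42.0, limma 3.58.1 (voom), other scalings and filters, a replicate block, correction for GC content and length, each library left out, and all 18 libraries in the fit. Length and GC content were those of the longest GENCODE transcript, matched by Entrez ID or symbol, and were found for 16261 genes of the table. The script was tested on simulated data.

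Members and lists were chosen with earlier results of these data known. The genes named are Stat3, Stat5a, Stat5b and Xcr1; the 12 highest and 12 lowest called fold changes without overlap at 5 CPM or more; the 5 most abundant called genes in each direction; up to 4 called members of each of 37 lists, or the 2 most abundant where none was called; called markers of other cells; and called genes among the 20 on either side of the STAT genes in the reference order. The list of mitochondrially encoded genes had no gene in the table. Of the genes this rule selects, 2 are not reported here.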

Additional observations from a re-analysis of the deposited data

Results flagged for a closer look

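In groups of 4 libraries, 312 combinations of gene or list and genotype were checked for a library far from the rest (Dixon's test), which flags about 1 in 20 by chance, and 16 were flagged. WT replicate 4 stood apart in Irf7 (17.4 CPM against 11.2 to 11.7 in the other WT libraries) and in the mean log2 CPM of interferon signalling genes (7.17 against 7.10 to 7.11), DNA replication genes (5.81 against 5.92 to 5.94) and pan conventional dendritic cell markers (8.02 against 7.93 to 7.94). KO replicate 4 stood apart in Cd74 (14717 CPM), Tlr13 (64.5), Jak3 (28.9), Phgdh (32.5) and Itgam (114.0), and in the mean log2 CPM of the MHC class II (8.69), MHC class I (7.81) and p53 target (5.04) lists. WT replicate 3 stood apart in Pola1 (64.9 CPM) and Fau (708 CPM), WT replicate 1 in Ly75 (77.6 CPM), and KO replicate 2 in the chemokine list (mean log2 CPM 4.34).

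For 25 named genes the genotype difference under LPS differed from that without stimulation, as a called interaction in edgeR. Below 0 were Ifi44 (-1.32), Isg15 (-1.28), Irf7 (-1.19), Oas3 (-1.15), Gcsam (-1.06), Cd300a (-0.98), Ifi204 (-0.91), Isg20 (-0.89), Xaf1 (-0.81), Batf3 (-0.70), Cdkn2d (-0.65), Lgals9 (-0.65), Tgtp2 (-0.60), Kit (-0.48), Jak3 (-0.43), H2-DMa (-0.40), Fau (-0.38), Rps14 (-0.38), Rpl34 (-0.33) and H2-K1 (-0.26). Above 0 were Matn2 (0.85), Tspoap1 (0.80), Fndc5 (0.74), Cenpe (0.59) and Hmgcs1 (0.38). When each of the 18 libraries was left out in turn, 14 of the 25 were called every time. Isg15 (adjusted p = 0.068), Lgals9 (0.058) and Rpl34 (0.067) missed only without WT control replicate 3. The remaining 8, Ifi204, Xaf1, Cenpe, Matn2, Tgtp2, H2-K1, Jak3 and Hmgcs1, were lost in 4 to 13 of the 18 fits, without WT control replicate 3 in each case (adjusted p up to 0.10).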

How the results depend on the processing

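Without stimulation, the count of calls was 289 (226 higher, 63 lower) with all 18 libraries in the fit, and 282 of them were among the 895. The count was 751 (481 higher, 270 lower) with WT LPS replicate 2 left out of that fit. It was 1587 (884 lower) with the replicate block and the GC and length correction together, and 691 genes were called lower with that correction alone. Leaving out each library gave 477 to 1028 calls, 255 to 568 higher and 222 to 460 lower, lowest in each case without WT replicate 3 (477, 255 and 222), with 564, 305 and 259 without KO replicate 3. The interaction gave 757 calls with DESeq2, 700 with the block and correction together, 1591 without the libraries numbered 5 and 7, and 208 to 1501 when a library was left out. The cause of these shifts was not tested.

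The replicate block alone gave 990 calls (618 for the interaction). Deviations of same-numbered libraries correlated weakly (0.08, 0.28, 0.08 and -0.03). The pair of replicate 2 was the highest of all pairs (0.285), just above WT replicate 1 with KO replicate 4 (0.277). Not every library correlated best with its own number, so the numbers were not taken as pairs. These correlations do not show that pairing was absent. No called named gene reversed its direction under any alternative run. Of 108 called named genes, 51 were called with all 18 libraries and 86 with WT LPS replicate 2 left out of that fit. There were 76 without WT replicate 3, 79 without KO replicate 3 and 86 to 107 in the other fits with all 108 tested. With 4 libraries a genotype, low genes such as Isg15 and Ifi44 rest on few counts.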
